A study of Mus musculus with 4 samples.

Results

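The connective tissue fibroblasts described here were 558 cells marked by Dpt and Clec3b, which made up 1.32% of the 42164 cells that passed the quality limits in 4 single-cell RNA libraries of mouse molars. They were chosen on measured counts of unique molecular identifiers (UMIs, each standing for 1 captured RNA molecule). A cell was taken when Dpt, Clec3b, Mfap5 and Tnxb together gave at least 4 UMIs from at least 3 of the 4 genes and when Col1a1, Col1a2 and Col3a1 together gave at least 5 UMIs. It was left out when it held any UMI of Epcam, Ptprc or Pecam1, which mark epithelium, immune cells and endothelium, more than 1 UMI of the tendon genes Tnmd and Scx, or more than 2 UMIs of the transcription factor genes Ebf2 and Meox2. Because the choice was made on counts, the levels of these genes in the chosen cells are a description and not a finding.

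The series profiled gene expression during molar morphogenesis, with the Wnt pathway as its subject. All animals had the wild-type genotype WTB6, and neither a transgene nor a treatment was involved. The study's methods give the strain as C57BL/6J. There were 2 stages, E15.5 (embryonic, given as E15 in the labels) and P1 (postnatal day 1, given in the protocol as P0/P1), and at each stage maxillary (upper jaw) and mandibular (lower jaw) molar tooth organs were dissected, 6 tooth organs being pooled into each library. Each stage and jaw therefore had 1 library, and no difference between them has a replicate check. Differences of litter and library cannot be told apart from those of stage or jaw. Values below are given in the order E15.5 maxillary, E15.5 mandibular, P1 maxillary and P1 mandibular unless stated otherwise.

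Fibroblasts of loose connective tissue lie around vessels, nerves and organs and beneath epithelia, and they lay down and organise the collagen and elastic fibres that hold those tissues together. Dpt encodes dermatopontin, a small protein that binds decorin and helps collagen fibrils assemble, Clec3b encodes tetranectin, a plasminogen-binding lectin, Mfap5 encodes a microfibril-associated glycoprotein, and Tnxb encodes tenascin X, a large glycoprotein that spaces collagen fibrils. In adult tissues a subset of such fibroblasts around vessels is known by Pi16, Dpp4, Ly6a, Cd34 and Sema3c and is regarded as a progenitor reserve, whereas the dental papilla and follicle are the mesenchyme that forms dentin, pulp, cementum and ligament.

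On the mouse assembly GRCm38 (mm10), with GENCODE vM21 gene models, Dpt lies at chr1:164796644-164824266 on the plus strand and Clec3b at chr9:123150946-123157432 on the plus strand. Mfap5 lies at chr6:122505845-122529290 and Tnxb at chr17:34670535-34719815, both on the plus strand. The counts come from the 3′ ends of polyadenylated RNA and cover whole gene models, without separating exons or isoforms.

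The 4 libraries held 10885, 7947, 18707 and 19401 barcodes, 56940 in all, with 109723360, 86659227, 128812956 and 139873101 UMIs. A problem of these files bears on every P1 value. The P1 libraries shared 7131 barcodes, whereas any other pair of libraries shared between 28 and 70, and the shared barcodes were dropped from the P1 mandibular library and kept in the P1 maxillary one. The files do not settle which library these cells came from, so the jaw of nearly all P1 maxillary fibroblasts, and every P1 difference between jaws below, rests on that choice. Of the 194 P1 maxillary fibroblasts, 186 (95.9%) had a barcode that was also in the P1 mandibular library, and leaving shared barcodes out of both libraries left 8. In those 186 barcodes the maxillary library held more UMIs than the mandibular one by a median of 2.08 on the log2 scale, with a 5th to 95th percentile range of 2.01 to 2.17. Of them, 184 passed the quality limits in the mandibular library and 52 also met the rule for the fibroblasts there.

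Genes of jaw and face identity were read in the cells with and without a shared barcode. Hand2, a transcription factor gene of the lower jaw, was at 0.155 UMIs per 1000000 UMIs (CPM) in P1 maxillary collagen cells with a shared barcode and at 0.357 CPM in those without one. In P1 mandibular collagen cells Hand2 was at 8.83 CPM without a shared barcode and at 0.0754 CPM with one. Pax3, a gene of the frontonasal and upper face, was at 157 CPM in P1 maxillary collagen cells with a barcode of their own. Pax3 was at 0.724 CPM in those with a shared barcode and at 2.13 CPM in P1 mandibular ones without one. In the order maxillary shared, maxillary own and mandibular own, Dlx5 was at 163, 15.3 and 110 CPM. Barx1 was at 615, 185 and 357 CPM and Tfap2b at 44.9, 52.8 and 11.2 CPM. The shared maxillary cells were nearer to the mandibular cells by Pax3, Alx1, Dlx5 and Barx1. By Hand2 and Tfap2b they were nearer to the other maxillary cells. The P1 maxillary library thus held 2 sets of collagen cells that differed in depth too, with medians of 2677 UMIs in 4634 cells with their own barcode and 12312 UMIs in 4299 cells with a shared one. Nearly all P1 maxillary fibroblasts belonged to the latter set.

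The fibroblasts of the libraries also stood apart by sex. Cells with UMIs of Xist, expressed from the inactive X of females, and none of the Y-linked genes made up 30.1%, 26.8%, 93.8% and 81.8% of the fibroblasts. Cells with Y-linked UMIs and no Xist made up 55.3%, 67.6%, 1.55% and 9.41%. The fibroblasts at P1 thus came mostly from females and those at E15.5 from both sexes, so that sex moved with stage. In the other collagen cells the Xist share was 32.9%, 38.3%, 54.4% and 84.1% and the Y-linked share 50.5%, 49.9%, 24.1% and 9.44%. In P1 collagen cells (maxillary shared, maxillary own, mandibular own) Xist was at 802, 434 and 766 CPM. The Y-linked Ddx3y was at 11.7, 51.8 and 7.66 CPM and Uty at 20.6, 65.7 and 12.2 CPM. By each of these genes the shared maxillary cells were nearer to the mandibular cells. Outside the list of sex chromosome genes, 166 genes were counted below by stage in either direction. Of these, 165 had a value when only Xist-positive maxillary fibroblasts without Y-linked UMIs (37 at E15.5 and 182 at P1) were compared. Of the 166, 162 had the same direction and 140 were past 2-fold again. The genes had been picked on counts that these same cells entered, 37 of 123 at E15.5 and 182 of 194 at P1. The agreement is therefore a description, and the part of sex in the stage ratios was not tested.

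The fibroblasts numbered 123, 71, 194 and 170, which was 1.27% (95% interval 1.06 to 1.51), 1.08% (0.843 to 1.36), 1.18% (1.02 to 1.35) and 1.81% (1.55 to 2.09) of the quality cells of each library. As a share of the cells with at least 5 collagen UMIs and no UMI of Epcam, Ptprc or Pecam1, called collagen cells here, they were 2.20%, 2.23%, 2.17% and 3.52%. The intervals are exact and cover counting error only. They held 1741954, 1162105, 2294215 and 1952086 UMIs in all, with medians of 13168, 15608, 10749 and 10145.5 UMIs per cell, against 10076, 13917.5, 5028 and 11895 in the other collagen cells. The depth of the comparison cells thus differed most from that of the fibroblasts in the P1 maxillary library.

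The limit on Ebf2 and Meox2 decided much of the size of the group. The marker part of the rule was met by 271, 441, 302 and 1114 cells, of which 100, 305, 64 and 723 were left out for Ebf2 and Meox2. This was 36.9%, 69.2%, 21.2% and 64.9%, a larger share in both mandibular libraries than in both maxillary ones. A UMI of Epcam, Ptprc or Pecam1 took out 46, 56, 44 and 205 cells and the tendon limit took out 2, 9, 0 and 16. Without the Ebf2 and Meox2 limit there would have been 223, 376, 258 and 893 fibroblasts.

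**Figure D1:**
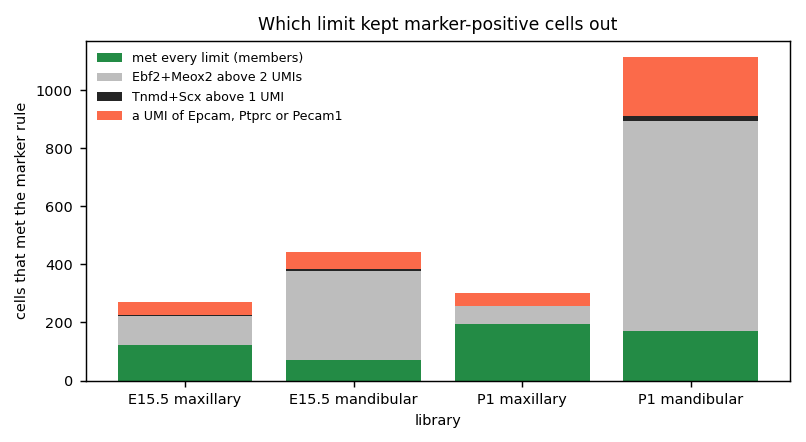
Each bar shows the number of cells of a library (vertical axis) that met the marker part of the rule, split by the first limit that kept a cell out. The green part is the 123, 71, 194 and 170 fibroblasts, and the grey part, cells with more than 2 UMIs of Ebf2 and Meox2, was larger than the green part in both mandibular libraries.

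The median marker sum was 17, 22, 18 and 23 UMIs, and all 4 marker genes were detected in 37.4%, 52.1%, 34.5% and 59.4% of the fibroblasts. Just inside the threshold, 22 fibroblasts had a sum of 4 or 5, and just outside it 659 cells met the other limits with a sum of 2 or 3. Sema3c, a secreted semaphorin gene, was at 168 CPM inside and 73.7 CPM outside, and Cd34, a surface sialomucin gene, at 136 and 143 CPM. Runx2, a transcription factor gene of bone and tooth mesenchyme, was at 63.6 and 147 CPM. On either side of the threshold Cd34 was thus at a like level, and over all 558 fibroblasts Cd34 was at 292, Sema3c at 459 and Runx2 at 41.3 CPM.

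A level here is the sum of a gene's UMIs over all fibroblasts of a library per 1000000 UMIs of these cells (CPM). Dpt was at 752, 711, 694 and 627 CPM, against 69.1, 36.4, 23.7 and 25.8 CPM in the other collagen cells. Clec3b was at 229, 324, 306 and 855 CPM, Mfap5 at 444, 881, 699 and 1170 CPM, and Tnxb at 123, 235, 175 and 449 CPM. Dpt was thus at similar levels in all libraries, and the other 3 genes were highest in the P1 mandibular fibroblasts.

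The label of connective tissue fibroblasts was set against markers of the other cell types. Epcam, Ptprc and Pecam1 were at 0 by the rule. The summed level of 6 immune markers was 23.5, 10.3, 6.54 and 15.4 CPM, against 7586 to 8488 CPM in immune cells of the same libraries, and their most abundant gene in the fibroblasts was Fcer1g. The 5 endothelium markers summed to 18.4, 13.8, 19.2 and 10.8 CPM. Of the osteoblast markers, 5 of 6 were lower in the fibroblasts than in the other collagen cells by 2-fold or more in every library, as were 153 of 7266 genes in all (2.11%). The 6 were let in by their level in the other collagen cells, and 2 of them reached that level in the fibroblasts. This count is therefore a description and does not bear on the label.

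Some genes known from other cell types were detected all the same, and the source of their RNA was not tested. The 6 erythroid markers summed to 6020, 22751, 2672 and 613 CPM, led by Hbb-bs, a globin gene whose close copies share sequence. The epithelium markers summed to 111, 2.58, 13.9 and 36.9 CPM, led by Krt14. Amelx, which encodes the enamel protein amelogenin of ameloblasts, was at 3.44, 0.861, 37.5 and 131 CPM in the fibroblasts and at 0.427, 0.378, 423 and 1584 CPM in immune cells, which are not known to make it. Its level was thus higher at P1 than at E15.5 in immune cells as well, and the part of free RNA in the P1 values was not tested.

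Some of the adventitial progenitor genes were higher in the mandibular than in the maxillary fibroblasts. Of 22 such genes, 19 had a mean of at least 20 CPM over the libraries compared. Between jaws, 7 of the 19 were higher in the mandibular fibroblasts by 2-fold or more at both stages (Dpp4, Ly6a, Ly6c1, Anxa3, Wnt2, Igfbp6 and Thy1) and 0 were higher in the maxillary ones. Of the 7, Dpp4, Thy1 and Wnt2 were short of 2-fold at 1 stage or more without the Ebf2 and Meox2 limit. Over all 6886 genes at that level, 39 (0.566%) were higher in mandibular and 42 (0.610%) in maxillary fibroblasts at both stages. The median log2 ratio of maxillary to mandibular over the 19 genes was -0.74 at E15.5 and -1.80 at P1, against 0.03 and 0.04 over all genes. Between stages, Igfbp5 and Plac8 of this list were higher at P1 by 2-fold or more in both jaws and 0 were lower. Of the P1 maxillary UMIs of Plac8, 93.8% came from 16 cells described below, and without them and their mandibular counterpart its maxillary log2 ratio was -0.15 and only Igfbp5 of the list was higher.

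Ly6a (chr15:74994877-74998031, minus strand), which encodes the surface protein Sca-1, was at 36.7, 198, 13.5 and 481 CPM, highest in the mandibular fibroblasts at either stage. Its log2 ratio of maxillary to mandibular was -2.43 (95% interval -2.85 to -2.02) at E15.5 and -5.15 (-5.72 to -4.64) at P1. In the other collagen cells Ly6a was at 1.85, 8.84, 1.05 and 37.2 CPM, with ratios of -2.26 and -5.15. Those cells hold the 100, 305, 64 and 723 cells that met the marker part of the rule but were left out for Ebf2 and Meox2. Their ratios therefore do not show whether the jaws differed as much outside such fibroblasts. Ly6a and Ly6c1 belong to a family of close copies, and how their reads were split is uncertain.

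Dpp4 (chr2:62330073-62412231, minus strand), which encodes a surface dipeptidyl peptidase, was at 45.9, 121, 3.92 and 136 CPM. Its log2 ratio of maxillary to mandibular was -1.40 (-1.82 to -0.996) at E15.5 and -5.12 (-6.26 to -4.17) at P1. A UMI of Dpp4 was found in 26.8%, 43.7%, 2.58% and 42.9% of the fibroblasts, against 5.19%, 2.93%, 2.67% and 3.31% of immune cells and 3.84%, 11.0%, 0.893% and 8.39% of the other collagen cells. The P1 maxillary share was close to that of immune cells, and the other 3 shares were above both. With each cell thinned to 5000 UMIs, which left out 1, 1, 10 and 13 fibroblasts, the Dpp4 shares were 15.6%, 31.4%, 1.09% and 33.1%. Median depth was 13168, 15608, 10749 and 10145.5 UMIs in the fibroblasts and 10833, 14013, 3132 and 8055 UMIs in immune cells.

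Pi16 (chr17:29317680-29330593, plus strand), which encodes a secreted peptidase inhibitor, was at 35.0, 40.4, 6.97 and 152 CPM in the fibroblasts and at 12.7, 7.75, 8.11 and 32.8 CPM in immune cells. A UMI of it was found in 7.32%, 21.1%, 3.61% and 32.4% of the fibroblasts and in 12.04%, 9.09%, 4.10% and 23.0% of immune cells. The other collagen cells held a UMI of Pi16 in 1.81%, 4.14%, 0.732% and 6.87%, less often than immune cells in each library, so that immune cells give no level of free RNA for this gene. By this share the maxillary fibroblasts were above the other collagen cells and below immune cells at both stages, while by level they were above immune cells at E15.5 and below them at P1. At E15.5 the log2 ratio of maxillary to mandibular for Pi16 was -0.21 (-0.78 to 0.37), an interval that holds 0, and at P1 it was -4.44 (-5.27 to -3.72).

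Cd34, Sema3c, Col14a1 and Cd55, of the same list, did not set the jaws apart by 2-fold at both stages. Cd34 was at 239, 292, 234 and 407 CPM, and a UMI of it was found in 88.6%, 90.1%, 87.6% and 88.8% of the fibroblasts, against 14.1%, 10.3%, 4.63% and 8.64% of immune cells. Sema3c was at 345, 575, 268 and 717 CPM. Col14a1, a fibril-associated collagen gene, was at 911, 858, 792 and 936 CPM. Cd55, which encodes a complement inhibitor, was at 103, 121, 63.6 and 153 CPM. The fibroblasts of every library thus held Cd34, Sema3c, Cd55 and Col14a1, while Dpp4 was found in 2.58% of the P1 maxillary fibroblasts.

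Wnt2, a Wnt ligand gene, was the member of the list that the Wnt pathway also holds, at 31.6, 80.03, 7.85 and 77.9 CPM. Thy1, a surface glycoprotein gene, was at 9.76, 44.8, 7.85 and 36.9 CPM, and Igfbp6, an IGF-binding protein gene, at 94.7, 224, 91.1 and 393 CPM. For all 3 genes both mandibular values were above both maxillary values. These jaw ratios depended on the Ebf2 and Meox2 limit. With the limit lifted, the smaller log2 ratio of both stages went from -2.43 to -1.24 for Ly6a, from -2.20 to -0.29 for Thy1 from -1.40 to -0.29 for Dpp4 and from -1.34 to -0.78 for Wnt2, and 24 genes were higher in mandibular fibroblasts, of which 6 were among the 39. After thinning to 2000 UMIs the smaller ratio was -0.90 for both Ly6a and Dpp4, short of 2-fold.

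**Figure D2:**
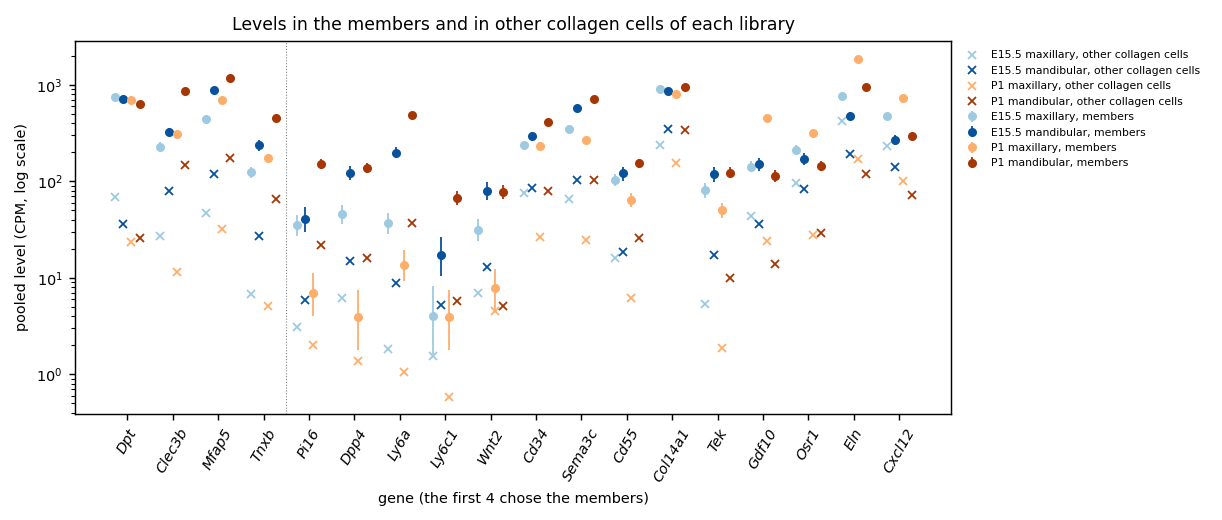
Circles show levels in the fibroblasts and crosses levels in the other collagen cells of the same library (CPM, log axis), with exact 95% Poisson intervals on the circles. Among the fibroblasts, Dpp4, Ly6a and Pi16 were lowest in the P1 maxillary library (3.92, 13.5 and 6.97 CPM), while Cd34, Sema3c and Col14a1 were above the other collagen cells in every library.

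Other genes that set the jaws apart at both stages were led by Tfap2b in the maxillary fibroblasts. Tfap2b, a transcription factor gene of the cranial neural crest, was at 12.1, 0.861, 96.8 and 5.12 CPM, with log2 ratios of maxillary to mandibular of 3.81 (1.17 to 9.18) and 4.24 (3.33 to 5.32). The E15.5 mandibular level of Tfap2b rests on a single UMI. In the other collagen cells Tfap2b was at 135, 23.0, 44.7 and 11.4 CPM, with ratios of 2.56 and 1.97. Tfap2b was thus lower in the fibroblasts than in the other collagen cells in 3 libraries and higher in the P1 maxillary one.

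Col8a1, a short-chain collagen gene, was at 52.8, 6.88, 158 and 24.1 CPM, with jaw ratios of 2.94 and 2.71, the smaller of which was -0.056 after thinning each cell to 2000 UMIs. Ikzf2, a zinc finger transcription factor gene, was at 105, 16.4, 247 and 70.7 CPM. Rspo1, which encodes a secreted enhancer of Wnt signalling, was at 32.7, 12.9, 112 and 36.9 CPM, with jaw ratios of 1.34 (0.50 to 2.27) and 1.60 (1.21 to 1.995), the smaller being 0.21 after that thinning. For each of these genes, without thinning, the maxillary value was the higher at both stages. The proteoglycan gene Kera, at 102, 28.4, 81.5 and 24.1 CPM, and Pcdh15, a protocadherin gene, at 68.3, 4.30, 65.0 and 17.4 CPM, had the same direction, the smaller ratio of Pcdh15 being 0.82 without the Ebf2 and Meox2 limit.

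On the mandibular side, Ccn3, which encodes a matricellular protein, was at 34.4, 207, 57.5 and 209 CPM. Nrxn3, a neurexin gene, was at 6.89, 43.9, 7.85 and 36.4 CPM, and Hspb1, a small heat shock protein gene, at 16.1, 92.9, 31.4 and 117 CPM. Without the Ebf2 and Meox2 limit the smaller jaw ratio was -0.79 for Ccn3 and -0.14 for Hspb1, both short of 2-fold. Among 27 transcription factor genes of fibroblasts, Ebf3 and Foxp2 were higher in mandibular fibroblasts at both stages and 0 in maxillary ones. Over all 6886 genes the shares were 0.566% and 0.610%. Foxp2 was at 36.7, 186, 22.7 and 57.4 CPM and Ebf3 at 80.4, 205, 17.4 and 161 CPM. Ebf3 is a relative of Ebf2, which the rule limits.

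Genes of facial position were mostly too low to compare. Of 35, 8 had a mean of at least 20 CPM, 0 of them were past 2-fold between jaws at both stages, and 13 were under 5 CPM in every library. Hand2 was at 4.59, 31.8, 0 and 13.3 CPM, with a log2 ratio of maxillary to mandibular of -2.79 (-4.11 to -1.67) at E15.5. At P1 it had 0 maxillary UMIs, and against the limit that a count of 0 allows (3 UMIs over the library) its log2 ratio of maxillary to mandibular was at most -3.35. Both jaws of either stage thus had the order of the labels for Hand2, also in the other collagen cells, at 1.10, 17.5, 0.201 and 8.68 CPM.

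**Figure D3:**
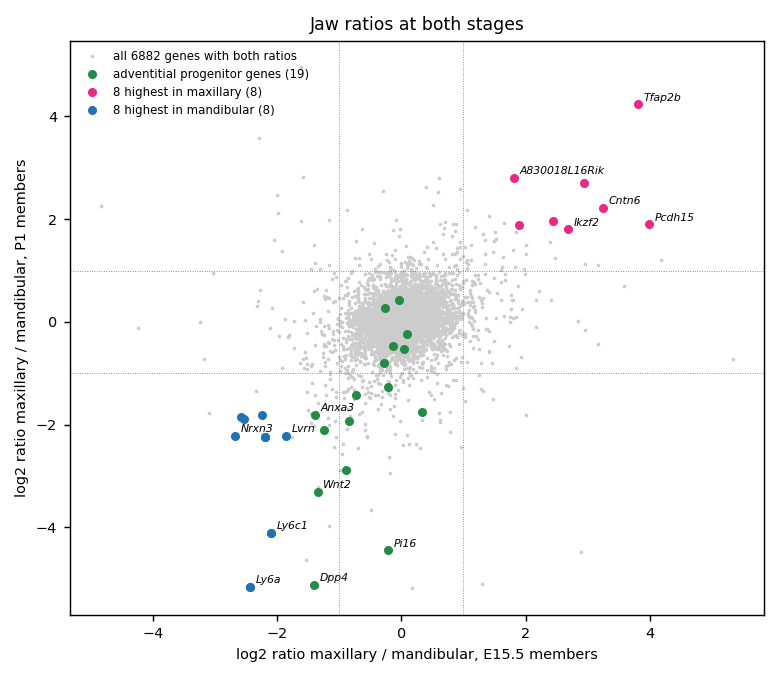
Each point is a gene, with its log2 ratio of maxillary to mandibular fibroblasts at E15.5 (horizontal) and at P1 (vertical), and dotted lines mark 2-fold. The adventitial progenitor genes (green) lie mostly to the lower left, with Ly6a at -2.43 and -5.15, and Tfap2b at 3.81 and 4.24 to the upper right.

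Between stages, 102 of 6886 genes (1.48%) were higher at P1 by 2-fold or more in both jaws and 69 (1.00%) were lower. Without the deepest P1 clusters described below, more genes were lower than higher, and other settings also raised the count of lower genes. The median log2 ratio of P1 to E15.5 over all genes was -0.04 in maxillary and -0.05 in mandibular fibroblasts. The cell cycle and stress response genes stood away from that. Of 23 cell cycle genes, 13 were lower at P1 and 0 higher, and all 23 ratios were negative in both jaws, with medians of -1.68 and -1.12. Of 19 stress response genes, 14 were higher at P1 and 0 lower, with medians of 1.37 and 1.97.

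Top2a, a topoisomerase of dividing cells, was at 182, 108, 62.8 and 45.1 CPM, with log2 ratios of P1 to E15.5 of -1.54 (-1.83 to -1.25) and -1.25 (-1.66 to -0.85). Mki67, the gene of the proliferation marker Ki-67, was at 97.6, 61.1, 29.6 and 29.2 CPM. Both genes were higher in each E15.5 library than in either P1 library. In the other collagen cells Top2a was at 218, 221, 152 and 149 CPM, with ratios of -0.53 and -0.57. The ratio was larger in size in the fibroblasts in both jaws, a difference that was not tested.

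Fos, an immediate early gene, was at 433, 394, 1139 and 1440 CPM in the fibroblasts and at 802, 458, 714 and 730 CPM in the other collagen cells. Zfp36, which encodes an mRNA-destabilising protein induced by stress, was at 20.1, 24.1, 91.5 and 143 CPM. The 20 genes of this list summed to 4165, 4209, 7922 and 8670 CPM in the fibroblasts and to 5953, 4628, 5539 and 5064 CPM in the other collagen cells. Genes of this kind are known to respond to tissue dissociation, whose part in these values was not tested.

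The genes with the largest stage ratios were carried by few cells. Ranked by the smaller ratio of both jaws, the 12 genes highest at P1 were Nebl, D030025E07Rik, Plac8, Smpd3, Acta1, Amelx, Car2, Kirrel3, Cox4i2, Plppr1, Wif1 and Tfap2b. For 8 of them, namely Nebl, D030025E07Rik, Smpd3, Car2, Kirrel3, Cox4i2, Plppr1 and Wif1, over 80% of the P1 UMIs were in 1 cluster of each P1 library, the one with the deepest cells. That cluster held 16 of the 194 maxillary fibroblasts (8.25%) and 13 of the 170 mandibular ones (7.65%). Wif1, the gene of a secreted Wnt inhibitor, is an example, at 11.5, 5.16, 74.97 and 90.2 CPM over all fibroblasts.

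The cells of these clusters had medians of 21050.5 and 21657 UMIs, against 10330.5 and 9839 in the other fibroblasts of the same libraries. They had a lower median summed level of the 4 marker genes, 635 against 1872 CPM in the maxillary and 1403 against 2678 CPM in the mandibular library. All 16 and all 13 were among the barcodes ranked highest for doublets, against 7 of 178 and 18 of 157 of the other fibroblasts. Whether they are doublets was not tested beyond that ranking. The genes that led the maxillary cluster included Plppr1, Car2 and Rspo4.

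**Figure D4:**
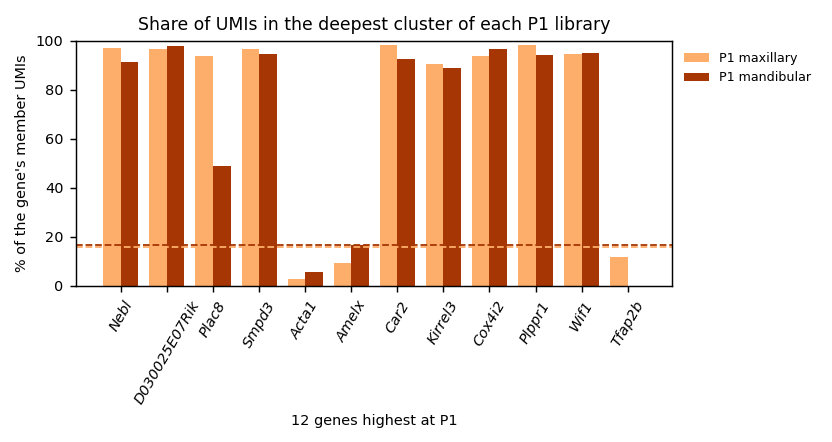
Bars show, for the 12 genes highest at P1, the percent of the gene's UMIs in the fibroblasts that came from the deepest cluster of the P1 maxillary (light) and P1 mandibular (dark) library, and dashed lines mark that cluster's percent of all UMIs, 15.9 and 16.8. Of the 12, 8 genes are above 80% in both libraries, whereas Acta1, Amelx and Tfap2b are below 20%.

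Without these cells, 75 genes were higher at P1, of which 65 were among the 102, and 99 were lower, of which 61 were among the 69. The counts for the lists were 18 cell cycle genes lower in place of 13, and 14 stress response genes higher as before. Some of the other lists counted below changed, by 1 gene each. Adamtsl3 (proteases and inhibitors), Igfbp3 (insulin-like growth factors) and Angptl2 (growth factors) were then also higher at P1. Crabp1 (retinoic acid) and Col11a1 (collagens) were also lower, and Omd and Wif1 were no longer higher. The genes highest at P1 were then Acta1, Amelx, Tfap2b, Mylpf, Itgbl1, Zfp36, Hspa1b, Hspa1a, Pde1c, Atf3, Kcnma1 and Igfbp5. The mandibular values of Tfap2b rest on 1 and 10 UMIs, and without the Ebf2 and Meox2 limit its smaller stage ratio was -0.26. Acta1, Mylpf and Amelx are genes of skeletal muscle and ameloblasts, and Acta1 was at 25.4, 27.2, 10.8 and 141 CPM in the other collagen cells against 2.87, 4.30, 32.3 and 96.8 CPM in the fibroblasts.

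Igfbp5, which encodes an IGF-binding protein of the matrix, was higher at P1 in both jaws, at 377, 453, 1668 and 1387 CPM. Its log2 ratio of P1 to E15.5 was 2.14 (2.02 to 2.27) in maxillary and 1.62 (1.48 to 1.75) in mandibular fibroblasts, and 2.27 and 1.78 without the deepest clusters. Much of its P1 level lay in 1 cluster of each library, at 3269 CPM in 41 maxillary cells against 1206 CPM in the rest and at 3659 CPM in 38 mandibular cells against 687 CPM in the rest. In the other collagen cells Igfbp5 was at 436, 547, 411 and 536 CPM, with ratios of -0.08 and -0.03. Igfbp7, like Igfbp5, was higher at P1 in both jaws, so that 2 of 10 genes of the insulin-like growth factor list were higher at P1 and 0 lower. Over all 6886 genes the shares were 1.48% and 1.00%.

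Matrix genes past 2-fold between stages were counted by list, here and in the next paragraph. Over all 6886 genes, 1.48% were higher and 1.00% lower at P1. Of 19 elastic fibre genes, Eln alone was higher at P1 and 0 were lower. Eln, the gene of elastin, was at 770, 475, 1849 and 952 CPM, with log2 ratios of P1 to E15.5 of 1.26 (1.18 to 1.35) and 1.00 (0.87 to 1.14), the latter at the threshold and at 0.63 without the Ebf2 and Meox2 limit. In the other collagen cells Eln was at 426, 193, 171 and 118 CPM, so that its direction there was the opposite, with ratios of -1.32 and -0.70. Within the P1 maxillary fibroblasts Eln was at 4767 CPM in a cluster of 41 cells and at 1008 CPM in the rest.

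Of 13 collagen genes Col8a1 was higher at P1 and 0 were lower. Of 28 proteoglycan and matrix glycoprotein genes, Prelp, Omd and Igfbp7 were higher and 0 lower, and Omd, the gene of osteomodulin, was higher still in the other collagen cells, at 102, 34.4, 410 and 394 CPM, against 1.72 CPM in the E15.5 mandibular and 81.5 CPM in the P1 mandibular fibroblasts. Omd was not past 2-fold in both jaws without the deepest P1 clusters, which held 82.6% and 93.1% of its P1 UMIs, its maxillary ratio then being -0.32. Of 24 genes of matrix proteases and their inhibitors, 0 were past 2-fold between stages in both jaws. The summed level of the 20 collagen genes was 27577, 25481, 23746 and 34872 CPM, with Col3a1 the most abundant.

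Lists of secreted factors and metabolic genes were counted in the same way, beside 1.48% higher and 1.00% lower over all 6886 genes. Of 30 growth factor and receptor genes, Gas6 and Angptl4 were higher at P1 and 0 lower. Of 14 lipid and detoxification genes, Lpl and Abca8a were higher and 0 lower. Lpl, the gene of lipoprotein lipase, was at 125, 109, 285 and 403 CPM, with ratios of 1.19 (0.97 to 1.42) and 1.88 (1.61 to 2.17). Tnfaip6, which encodes a hyaluronan-binding protein, was higher at P1 among 7 chemokine, complement and cytokine genes, at 71.2, 89.5, 181 and 245 CPM. For Lpl and Tnfaip6 each P1 library was above each E15.5 library.

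Among 9 retinoic acid genes, Rbp4 and Crabp2 were lower at P1 and 0 higher, beside 1.00% lower and 1.48% higher over all 6886 genes. Rbp4, the gene of a retinol carrier, was at 84.4, 97.2, 3.49 and 21.5 CPM, with log2 ratios of -4.60 (-5.84 to -3.58) and -2.18 (-2.72 to -1.65). The other collagen cells had ratios of -3.06 and -2.58 for Rbp4, at 27.1, 99.03, 3.26 and 16.5 CPM. None of the 14 imprinted growth genes was past 2-fold in both jaws. Cdkn1c, an imprinted gene of a cyclin-dependent kinase inhibitor, came close in the maxillary fibroblasts, at 5983, 6067, 3086 and 2455 CPM, with ratios of -0.96 and -1.31.

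Of the 12 genes lowest at P1, Ddx3y, Eif2s3y and Uty are Y-linked and moved with the sexes of the cells. Traf3ip3 stood at the head of that ranking, but 102 of its 106 UMIs in the E15.5 mandibular fibroblasts came from 1 cell. The others were Rbp4, Pclaf, Gm47283, Nefl, Cdh12, A830018L16Rik, Gmnn and Ccne1, of which Pclaf, Gmnn and Ccne1 are genes of the cell cycle.

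**Figure D5:**
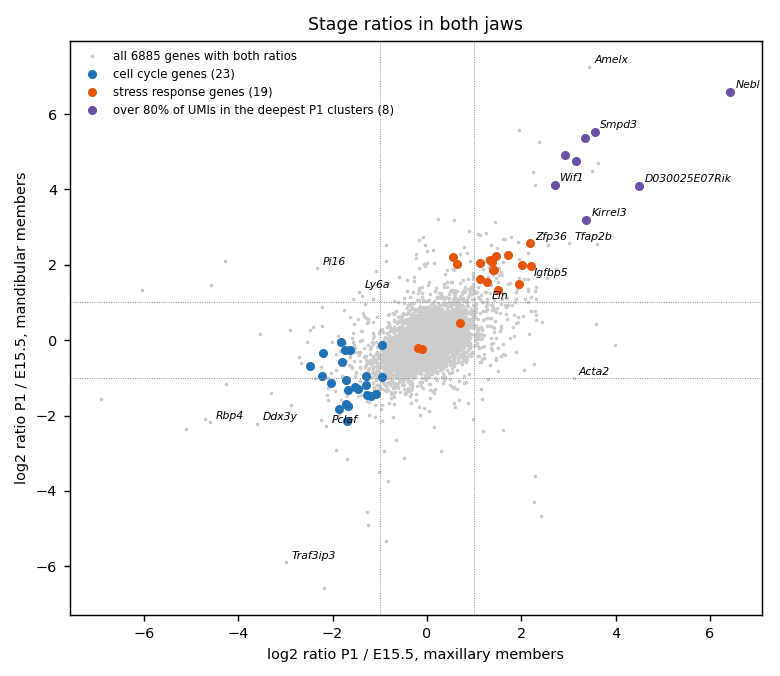
Each point is a gene, with its log2 ratio of P1 to E15.5 in maxillary (horizontal) and mandibular (vertical) fibroblasts, and dotted lines mark 2-fold. The 23 cell cycle genes (blue) are all below 0 on both axes, the stress response genes (orange) are mostly above 2-fold on both, and the 8 genes in purple are those carried by the deepest P1 clusters.

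The Wnt pathway, the subject of the series, was represented by some of its genes in these fibroblasts. The 60 pathway genes summed to 3657, 3664, 3902 and 3470 CPM, against 4179, 2785, 4165 and 3605 CPM in the other collagen cells. Of the 60, 26 had a mean of at least 20 CPM, 16 were under 5 CPM in every library, and Wnt3, Wnt9b and Sost had no UMI at all. Between stages Wif1 and Rspo1 of the 26 were higher at P1 and 0 lower, beside 1.48% and 1.00% over all 6886 genes. The P1 level of Wif1 was carried by the deepest clusters, as above. Rspo1 had log2 ratios of P1 to E15.5 of 1.77 (1.35 to 2.21) and 1.51 (0.70 to 2.42), and 1.89 and 1.72 without those clusters. The smaller ratio of Rspo1 was 0.96 without the Ebf2 and Meox2 limit and 0.56 after thinning to 2000 UMIs, both short of 2-fold. Within the P1 mandibular fibroblasts Rspo1 was at 137 CPM in a cluster of 35 cells and at 13.3 CPM in the rest.

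Against the other collagen cells, 7 of 36 Wnt pathway genes with a mean of at least 20 CPM in those cells were lower in the fibroblasts by 2-fold or more in all 4 libraries. Of the 26 at that level in the fibroblasts, 0 were higher. Over all genes, 113 of 6879 (1.64%) were higher and 153 of 7266 (2.11%) lower in that comparison, whose cells were chosen by their counts. Genes entered each count through the group where they would be higher, so the counts of higher and lower genes rest on different sets. They are a description only. The 7 were Frzb, Wif1, Sostdc1, Notum, Fzd3, Lef1 and Tcf7, namely 4 genes of secreted inhibitors, a receptor and 2 transcription factors of the pathway. Lef1 was at 12.1, 0.861, 7.85 and 5.12 CPM, against 81.2, 21.2, 56.4 and 52.0 CPM in the other collagen cells. Sfrp2, a secreted Frizzled-related protein gene and the most abundant of the list, was at 734, 1034, 482 and 564 CPM, against 761, 371, 321 and 146 CPM.

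Ranked by the smallest ratio over the libraries, Ly6a and then Tek stood highest in the fibroblasts against the other collagen cells. Tek encodes the angiopoietin receptor TIE2, better known from endothelium, and was at 80.4, 118, 50.1 and 123 CPM against 5.40, 17.0, 1.86 and 9.93 CPM, a log2 ratio of 3.90, 2.79, 4.75 and 3.63. The endothelium markers without Pecam1 were low, as given above. A UMI of Tek was found in 36.6%, 52.1%, 25.3% and 41.2% of the fibroblasts and in 2.41%, 1.47%, 0.713% and 2.76% of immune cells. Mgst1, a glutathione transferase gene, was at 324, 172, 184 and 160 CPM, and Gata6, a transcription factor gene, at 29.3, 43.9, 10.0 and 40.0 CPM. The ranking also held Stmn4, Cd55, 1810010H24Rik, Efhd1, Adgrd1, Hmcn2, Sema3c and Anpep.

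By lists, 12 of 19 adventitial progenitor genes were higher than in the other collagen cells in all 4 libraries. Over all genes it was 113 of 6879 (1.64%). Genes counted as higher had a mean of at least 20 CPM in the fibroblasts, and those counted as lower had it in the other collagen cells. Each count thus rests on genes let in where they are high and is a description. Of 19 elastic fibre genes 4 were higher (Fbn1, Efemp1, Ltbp2 and Lox), of 24 protease and inhibitor genes 4 (Adamts5, Htra3, Pi15 and Pi16), and of 14 imprinted genes 3 (Meg3, Rian and Mirg), and 0 genes of any of these lists were lower. Fbn1, the gene of fibrillin-1, was at 493, 922, 651 and 1207 CPM against 209, 243, 229 and 346 CPM. Of 30 growth factor genes, Fgf7, Gdf10 and Kitl were higher and Tgfb1 lower. Of 27 transcription factor genes, Osr1 and Tbx18 were higher and Gli1 lower.

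Of the proteoglycan and glycoprotein genes 2 were higher (Dcn and Spon2) and 4 lower (Fmod, Omd, Matn4 and Spon1), and of the collagen genes 2 were higher (Col5a3 and Col14a1) and 2 lower (Col11a1 and Col2a1). Osr1, a transcription factor gene of connective tissue, was at 212, 171, 314 and 144 CPM against 96.7, 83.4, 27.9 and 29.3 CPM. Dcn, the gene of the proteoglycan decorin, was at 3288, 2779, 3548 and 4432 CPM against 1053, 1118, 1079 and 1897 CPM. Aldh1a1, a retinaldehyde dehydrogenase gene, was at 26.4, 37.9, 14.0 and 38.4 CPM against 3.42, 8.41, 1.86 and 8.83 CPM. The genes lowest against the other collagen cells included Spp1, Col2a1, Rgs5 and Tnn, genes of bone, cartilage, pericytes and tooth mesenchyme. Of the 5 pericyte markers Rgs5 alone was lower by 2-fold or more in every library. The median log2 ratio of that list was 0.48, 0.21, -0.75 and 0.17, so its other genes did not follow Rgs5.

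The fibroblasts were also set beside collagen cells with at least 4 UMIs of Ebf2 and Meox2, of which there were 743, 1394, 243 and 996. In them 12.1%, 20.5%, 22.2% and 69.1% met the marker part of the rule themselves. Clec3b was at 120, 151, 216 and 671 CPM in these cells, so that its log2 ratio of fibroblasts to them was 0.93, 1.10, 0.51 and 0.35. Pi16 was at 13.1, 10.5, 34.2 and 101 CPM in these cells, above the fibroblasts in the P1 maxillary library and below them in the other 3. Gdf10, a growth factor gene of the TGF-beta family, was at 142, 150, 448 and 114 CPM in the fibroblasts and at 35.1, 43.2, 73.7 and 29.8 CPM in these cells. Ltbp2, which encodes a latent TGF-beta binding protein of microfibrils, had ratios of 1.97, 2.30, 2.19 and 1.91 to these cells.

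Collagen cells with at least 3 UMIs of Tnmd and Scx, 333, 250, 102 and 368 in number, were compared in the same way. Tek was at 1.74, 7.77, 0 and 2.78 CPM in them and Cd34 at 18.2, 30.0, 7.79 and 27.3 CPM. Col5a3, a gene of a minor fibrillar collagen chain, was at 265, 371, 136 and 320 CPM in the fibroblasts and at 12.96, 20.9, 6.82 and 22.3 CPM in these cells. Cilp, a cartilage and tendon matrix gene, was at 0.574, 0.861, 1.74 and 6.66 CPM in the fibroblasts and at 40.6, 97.0, 26.3 and 222 CPM in these cells.

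Within a library the fibroblasts were not uniform. Clustering gave 3 clusters in the E15.5 maxillary library and 5 in each P1 library, and the E15.5 mandibular library, with 71 fibroblasts, was not clustered. The genes of the clusters are a description, since the same counts made them. In the P1 mandibular library a cluster of 38 cells was led by Ccn5, Hemgn, Akr1c18, Krtdap, Cmah and Anxa3, in that order. Pi16 was at 476 CPM in it against 51.6 CPM in the other fibroblasts, Dpp4 at 333 against 75.7 and Ly6a at 1468 against 177. Mfap5 was at 2948 against 622 CPM there. A cluster of 35 cells of the same library was led by Galntl6, Nppc and Nrg1, with Ly6a at 0 CPM and Pi16 at 10.7 CPM, and one of 41 cells had Cxcl10 and Zfp36 among its leading genes, with Fos at 3064 against 966 CPM.

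In the P1 maxillary library, a cluster of 41 cells was led by genes that included Kera, Ccn3 and Thbs4, one of 38 by A830018L16Rik, Erbb4 and Ibsp, and one of 49 by Entpd1 and Pcdh15, with Hbb-bs at 6494 against 47.3 CPM in the others. Pi16 was between 0 and 35.6 CPM in the 3 clusters named. At E15.5, 56 maxillary cells were led by Hmmr and Ccna2, with Top2a at 351 against 14.9 CPM and Pi16 at 70.3 against 0 CPM. The 54 cells of another cluster were headed by the mast cell genes Cma1 and Tpsb2, but 98.4% and 100% of the UMIs of these genes came from 1 cell.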

How the data were processed

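Per the labels and the study's methods, 6 molar tooth organs per library were dissociated with TrypLE and libraries were made with the Chromium 3′ v3.1 kit. The deposited count matrices hold UMI counts per gene and barcode for 32285 genes, which the authors made with Cell Ranger (version 7.0.1 in the matrix headers) on mm10. These whole-number counts are not normalized. Cells with at least 1000 UMIs and under 10% mitochondrial UMIs were kept.

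Counts were summed over the fibroblasts of each library and divided by their total (CPM). Intervals are exact 95% Poisson intervals for levels and Clopper-Pearson intervals for shares and ratios. With 1 library per stage and jaw no test was run. Genes with a mean of at least 20 CPM over the libraries compared were ranked, and a gene was counted when it was past 2-fold in the same direction in both jaws, at both stages or in all 4 libraries. A ratio against 0 UMIs used a floor of 3 UMIs per library. Cells with at least 5 UMIs of Ptprc, Tyrobp and Fcer1g (immune cells) were set beside the fibroblasts for RNA of other cells, which was not subtracted. Named genes were the leading genes of each list and ranking. The rule for the fibroblasts, the lists and the alternatives were chosen with earlier results of these data known. Doublets were not removed. As an alternative, barcodes were ranked by Scrublet scores at 0.8% per 1000 barcodes.

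Clusters came from Leiden clustering at resolution 0.5 within each library of at least 100 fibroblasts. Other alternatives were thinning, other CPM limits, TMM scaling (edgeR 4.0.16, R 4.3.3), mean per-cell levels, and other treatments of shared barcodes. The interval code was tested on simulated data. Python 3.11.15, numpy 2.4.6, scipy 1.17.1, pandas 2.3.3, scanpy 1.11.5, igraph 0.11.9 and matplotlib 3.10.9 were used.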

Additional observations from a re-analysis of the deposited data

Results flagged for a closer look

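Some genes went in opposite directions between stages in the fibroblasts of the 2 jaws, each by 2-fold or more and with intervals that leave out 0. There were 17 such genes of 6886 (0.247%), of which 5 are among the named genes, and the difference between jaws was not tested for any of them. Ly6a had a log2 ratio of P1 to E15.5 of -1.44 in maxillary and 1.28 in mandibular fibroblasts. Pi16 had ratios of -2.33 and 1.91, its maxillary P1 level of 6.97 CPM standing between 2.02 CPM in the other collagen cells and 8.11 CPM in immune cells. Corin, which encodes a membrane protease, had ratios of 1.15 and -1.29. Acta2, the smooth muscle actin gene, had ratios of 3.11 and -1.01, at 18.4, 73.1, 158 and 36.4 CPM. Myog, a gene of differentiating skeletal muscle, had ratios of 2.41 and -4.67.

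The barcodes shared by the P1 libraries hold counts that the comparisons above did not use. In the P1 mandibular library 78 shared barcodes met the rule for the fibroblasts, with a median of 2857.5 UMIs. Their summed counts held Ly6a at 45.3 CPM, Pi16 at 7.55 CPM, Dpp4 at 15.1 CPM and Tfap2b at 136 CPM, against 481, 152, 136 and 5.12 CPM in the 170 P1 mandibular fibroblasts with a barcode of their own. The P1 maxillary counts of shared barcodes that met the rule held 12.8, 7.08, 3.98 and 98.2 CPM of the same genes.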

How the results depend on the processing

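No library could be left out, since each stage and jaw has 1, and no paired analysis was possible because the libraries carry no replicate numbers. Over all alternatives for named genes, 509 values stayed within the interval or limit set for them, 108 moved by more, and 13 were counted as changed in sign. For stage and jaw ratios a change of sign was counted only where the main ratio was 2-fold or more. Without the Ebf2 and Meox2 limit (chosen after seeing the data) there were 223 E15.5 maxillary, 376 E15.5 mandibular and 893 P1 mandibular fibroblasts, and after thinning to 5000 UMIs 61, 39 and, at P1 maxillary, 110. With shared barcodes left out of both P1 libraries 8 P1 maxillary fibroblasts remained, under the 20 needed, so stage and jaw values were not given. With a mean limit of 50 CPM, 47 genes were higher and 23 lower at P1, 16 higher in maxillary and 15 in mandibular fibroblasts; with 5 CPM, 291, 200, 108 and 100. Thinning to 2000 UMIs gave 113 lower at P1, 78 higher in maxillary and 84 in mandibular. Without doublet-ranked barcodes 107 genes were lower at P1, and without the Ebf2 and Meox2 limit 108 were lower and 24 higher in mandibular. Against collagen cells with none of the 4 markers, 196 genes were higher and 236 lower. Resolution 1 gave 7, 8 and 8 clusters. Ratios that changed sign, as the smaller of both jaws or stages, were Plac8 at -0.29, Smpd3 at -0.71, Car2 at -2.10 and Wif1 at -1.78 (stage) and Cntn6 at -0.95 (jaw) without doublet-ranked barcodes. Without the deepest P1 clusters (chosen after seeing the data) they were Plac8 at -0.15, Smpd3 at -1.15, Car2 at -2.15, Plppr1 at -2.83 and Wif1 at -1.30. Tfap2b by stage was at -0.26 and Prss35 by jaw at 0.63 without the Ebf2 and Meox2 limit, and Col8a1 by jaw was at -0.056 after thinning to 2000 UMIs. The causes were not tested. Depth limits genes under a few CPM, where 1 UMI is about the whole level.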

Other observations

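Marker lists of further cell types are given here in the order E15.5 maxillary, E15.5 mandibular, P1 maxillary and P1 mandibular. The 5 pericyte markers, led by Abcc9, summed to 144, 165, 118 and 223 CPM against 152, 164, 270 and 271 CPM in the other collagen cells. The 5 tendon markers, led by Kera, summed to 111, 34.4, 104 and 38.4 CPM against 169, 200, 85.7 and 517 CPM. Of them, 2 (Tnmd and Scx) were limited by the rule in the fibroblasts, so this comparison is partly set by the choice of cells. The 6 osteoblast markers, led by Runx2, summed to 69.5, 18.9, 145 and 129 CPM against 716, 942, 968 and 1191 CPM, lower in each library. The 5 chondrocyte markers summed to 9.76, 18.9, 22.7 and 40.0 CPM against 105, 153, 161 and 143 CPM, again lower in each library. The 4 adipocyte markers summed to 28.1, 22.4, 8.28 and 18.95 CPM against 9.85, 8.81, 21.2 and 17.3 CPM, higher in the fibroblasts in each library but the P1 maxillary one. In immune cells they summed to 41.0, 56.7, 51.2 and 44.7 CPM, above the fibroblasts in each library. Of the 4, 3 were under 5 CPM in the fibroblasts of every library. The 4 perineurium markers summed to 40.8, 34.4, 9.15 and 11.3 CPM against 40.01, 35.5, 22.7 and 21.9 CPM. The 4 smooth muscle markers, led by Acta2, summed to 28.1, 109, 186 and 47.1 CPM against 176, 253, 140 and 93.9 CPM, higher than in the other collagen cells in the P1 maxillary library. The 5 skeletal muscle markers, led by Acta1, summed to 8.04, 79.2, 61.5 and 127 CPM against 72.9, 122, 20.4 and 193 CPM, with the same exception.

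Cxcl12, a chemokine gene of stromal cells, was at 471, 268, 731 and 293 CPM in the fibroblasts and at 231, 139, 101 and 71.3 CPM in the other collagen cells. Its level was thus higher in the fibroblasts in each library, and the maxillary value was the higher at both stages.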
